A study of Mus musculus with 4 samples.

Results

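The 9 genes described here make and recycle pyrimidine nucleotides, and Uprt, a uracil phosphoribosyltransferase homologue, is the one around which they were gathered. Their signals come from the brain cortex of SAMR1 males, mice that age normally and serve as the control of the senescence-accelerated strains. The mice were 7 months old when they were placed in single cages, where they spent 4 months. From 11 months of age, the TCQA group received the polyphenol tricaffeoylquinic acid orally, 5 mg/kg daily for 1 month, and the control group was given MilliQ water. Each group has 2 Clariom S mouse arrays, so that there are 4 in all, and the labels leave unstated whether each came from 1 mouse or from pooled mice. The p-values therefore measure the spread between these arrays, which may be technical.

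Members were found by their gene symbol among the 19505 genes on the array, and each of the 9 had 1 transcript cluster, the array's unit for a gene. The group was chosen by the difference of Uprt between TCQA and water in these same arrays, while its partners were added for their place in the pathway. Differences between TCQA and water are therefore given for the 9 genes as a description. Where p-values of limma's fit are counted over them, the counts only place the genes beside all others on the array. A level is a log2 signal, and levels of different genes are not set against each other, because probes differ in brightness. Of the rises that met the study's criteria (more than 2-fold, with an unadjusted p under 0.05), that of Uprt ranked 10 of 48, between Lrtm2 at 1.26 and Med16 at 1.22. At the 2-fold line, Hcn3 lay just inside at 1.0003 and Tex30 just outside at 0.9979.

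Pyrimidine nucleotides reach a cell by new synthesis and by salvage. In new synthesis, Cad builds dihydroorotate in the cytosol, Dhodh oxidises it to orotate in the inner mitochondrial membrane, and Umps joins orotate to the sugar phosphate PRPP and removes a carboxyl group to give UMP. In salvage, Uck1, Uck2 and Uckl1, the uridine-cytidine kinases, phosphorylate nucleosides that the brain takes up largely from blood. In microbes and plants the enzyme after which Uprt is named couples uracil with PRPP to give UMP directly, and whether the mammalian protein has that activity is not established. Ctps and Ctps2 turn UTP into CTP, which neurons and glia need for membrane phospholipids as well as for RNA.

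The 4 arrays had medians between 6.98 and 7.04 over all 19572 named transcript clusters. The negative control probe sets had a median of 6.98 and a 95th percentile of 11.06, so that a large part of the measured genes lay in the range of the negative controls. Of the 9 members, 7 lay above the negative control median on all 4 arrays. Uckl1 and Cad lay below it on all 4, and Ctps2 alone lay above the 95th percentile on all 4. For Uckl1 and Cad, signals this dim limit what can be said of the size of a difference, whatever its SE. In RNA from whole tissue, fewer cells of a type and less RNA per cell cannot be told apart.

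Uprt was higher in both TCQA arrays than in both water arrays. Its level was 10.97 in TCQA 1 and 11.17 in TCQA 2, against 10.04 in water 1 and 9.61 in water 2. The group means were 11.07 ± 0.14 (SD, n = 2) and 9.82 ± 0.31 (SD, n = 2), a difference of 1.25 on the log2 scale (SE 0.23), or 2.38-fold. The smallest gap between a TCQA array and a water array was 0.93, and the largest was 1.57. Both exceeded the gaps within the groups, which were 0.20 in size between the TCQA arrays and 0.43 between the water arrays. Over all named transcript clusters, 0.0664% had a larger rise. The Uprt signal exceeded 94.7% and 95.5% of the negative controls on the TCQA arrays, and 91.0% and 87.7% of them on the water arrays.

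**Figure D1:**
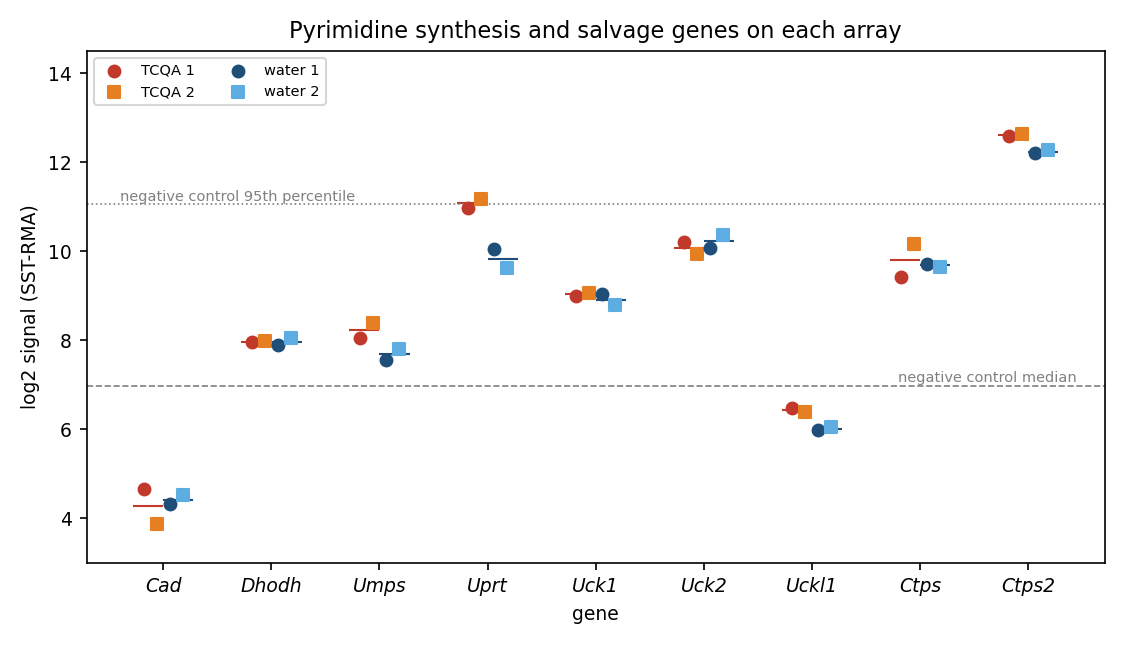
Log2 signal (vertical axis) of the 9 genes (horizontal axis) on each array, with TCQA arrays in red and orange, water arrays in blue, short lines at group means and grey lines at the median (6.98) and the 95th percentile (11.06) of the negative controls. Uprt, Umps, Uckl1 and Ctps2 have both TCQA points above both water points, while Cad and Uckl1 lie below the negative control median.

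Of the new-synthesis genes, Umps was higher in both TCQA arrays, and Cad and Dhodh overlapped between the groups. Umps makes UMP from orotate and PRPP. Its level was 8.05 in TCQA 1 and 8.39 in TCQA 2, against 7.55 in water 1 and 7.81 in water 2. The lowest TCQA array exceeded the highest water array by 0.24, which is less than the gap of 0.33 in size within the TCQA group. The difference of the means was 0.54 (SE 0.22), or 1.45-fold. It was 0.37 without TCQA 2 and 0.41 without water 1, against 0.70 without TCQA 1 and 0.67 without water 2.

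Cad, which holds the first activities of the pathway in 1 polypeptide, was dim on these arrays. Its level was 4.66 in TCQA 1 and 3.88 in TCQA 2, against 4.33 in water 1 and 4.52 in water 2. The water arrays lay between the TCQA arrays, and the difference of the means was -0.16 (SE 0.29). It was 0.24 without TCQA 2 and -0.55 without TCQA 1, so that its sign rested on which TCQA array was used.

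Dhodh, which couples the pathway to the respiratory chain, was level across the arrays. It stood at 7.96 and 7.98 in the TCQA arrays and at 7.89 and 8.05 in the water arrays. The group means were 7.97 and 7.97, and the SE of their difference was 0.19. The water arrays enclosed the TCQA arrays.

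Among the salvage kinases, Uckl1 was higher in both TCQA arrays, and Uck1 and Uck2 overlapped between the groups. Uckl1, a relative of the uridine-cytidine kinases, had levels of 6.48 in TCQA 1 and 6.39 in TCQA 2, against 5.98 in water 1 and 6.05 in water 2. The gap of 0.34 between the groups was larger than those within them, which were 0.09 and 0.06 in size. The difference of 0.42 (SE 0.19) was 1.33-fold, at a signal below the negative control median on each array.

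Uck1 stood at 9.0 and 9.07 in the TCQA arrays and at 9.03 and 8.78 in the water arrays. Water 1 lay between the TCQA arrays, and the difference was 0.13 (SE 0.20). Uck2, the more active kinase of the pair, had levels of 10.21 and 9.94 with TCQA against 10.08 and 10.36 with water. The highest value was that of water 2, and the difference was -0.14 (SE 0.21).

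The CTP synthases had different patterns. Ctps2 was the steadiest of the 4 genes whose groups did not overlap, at 12.59 and 12.62 in the TCQA arrays and at 12.21 and 12.26 in the water arrays. The gap of 0.34 between the groups compared with 0.03 and 0.04 in size within them, and the difference was 0.37 (SE 0.18), or 1.30-fold. Leaving out any 1 array gave between 0.35 and 0.39.

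Ctps, the other CTP synthase, split the TCQA arrays instead. It stood at 9.42 in TCQA 1 and 10.17 in TCQA 2, against 9.72 in water 1 and 9.65 in water 2. The water arrays again lay between the TCQA arrays, as they did for Cad, with the order of the TCQA arrays turned. The difference was 0.11 (SE 0.28), and it was 0.48 without TCQA 1 and -0.27 without TCQA 2.

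**Figure D2:**
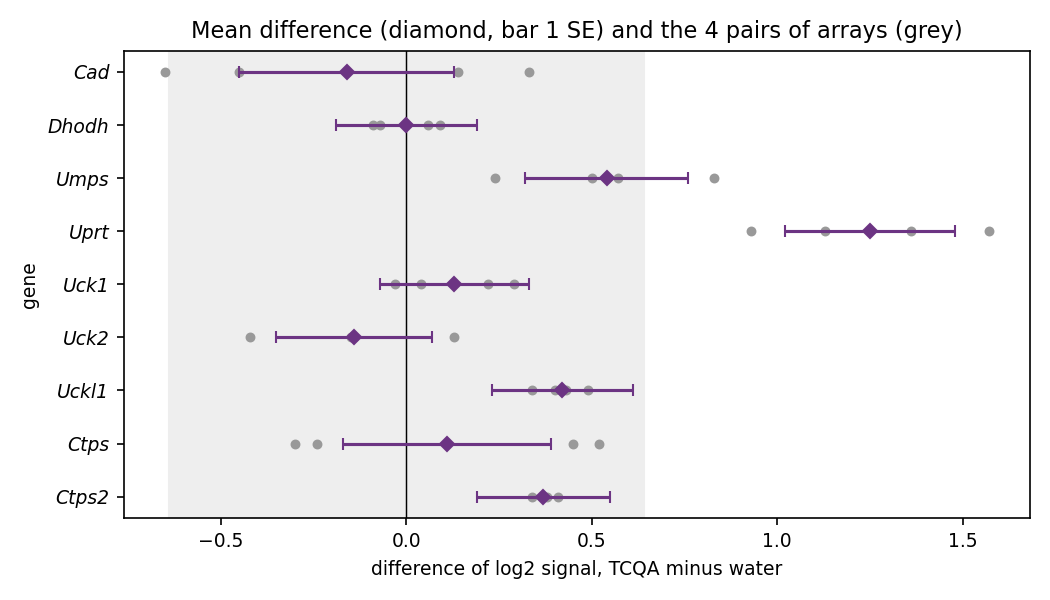
Difference of log2 signal, TCQA minus water (horizontal axis), for the 9 genes (vertical axis), with the mean difference as a diamond, its SE as a bar, each TCQA array minus each water array (4 pairs) as grey points and a grey band from -0.64 to 0.64 that holds 95% of all transcript clusters. Uprt alone lies outside the band, at 1.25, and the pairs of Cad and Ctps spread to both sides of 0.

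Counted over the 9 genes, 6 had a higher mean after TCQA and 3 a lower one, Dhodh among these with both means at 7.97. The median difference was 0.13. That median became 0.37 when TCQA 1 was left out and 0.24 when TCQA 2 was, 0.25 in the absence of water 1 and 0.08 in that of water 2. With Uprt left out the median was 0.12, beside a median of 0.0028 over all 19572 transcript clusters, of which 50.5% were higher. The TCQA arrays lay wholly above the water arrays for 4 of the 9 (Uprt, Umps, Uckl1 and Ctps2), where 19.9% of all transcript clusters did so. They lay wholly below for 0 of the 9, where 19.2% of all did so. Uprt alone met the study's criteria, which 0.664% of all transcript clusters met and 0.245% met as a rise. An unadjusted p under 0.05 was reached by Uprt and Umps in limma's fit, and by 7.37% of all transcript clusters (3.48% as a rise). After Benjamini-Hochberg adjustment 0 of the 9 passed, as did 0% of all. Since Uprt led to the choice of these genes, nothing is read from these counts.

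Start sites of 8 of the 9 genes had a promoter entry in RefSeq on GRCm38.p6, which gives 250 bases before the start and 50 after it. The sequences of Uprt and Umps are shown, as the members with the largest differences, with the first listed start of each. Capitals mark matches, on either strand, to 5 motifs: the E-box CACGTG, the cyclic AMP response element TGACGTCA, the GC box GGGCGG, the CCAAT box (CCAAT) and the TATA box (TATAAA). No 2 marked motifs overlap in these windows. Uprt lies at chrX:104482553-104482852 on the plus strand, and Umps at chr16:33966989-33967288 on the minus strand.
Uprt: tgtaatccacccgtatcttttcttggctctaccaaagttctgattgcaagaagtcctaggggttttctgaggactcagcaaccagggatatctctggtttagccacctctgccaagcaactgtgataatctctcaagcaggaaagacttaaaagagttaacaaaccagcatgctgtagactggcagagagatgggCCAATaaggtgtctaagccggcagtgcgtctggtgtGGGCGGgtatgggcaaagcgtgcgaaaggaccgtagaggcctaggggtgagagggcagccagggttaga
Umps: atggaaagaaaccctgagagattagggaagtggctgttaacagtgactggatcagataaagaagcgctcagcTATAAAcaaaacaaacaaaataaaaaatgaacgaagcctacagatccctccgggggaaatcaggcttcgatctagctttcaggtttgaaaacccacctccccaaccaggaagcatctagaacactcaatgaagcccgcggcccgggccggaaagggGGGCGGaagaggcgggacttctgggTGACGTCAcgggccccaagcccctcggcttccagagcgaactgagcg

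The Uprt window holds a CCAAT box at -55 and a GC box at -19 from the start site. The Umps window holds a GC box at -22, a cyclic AMP response element at 3 and a TATAAA match at -178. GC boxes stood in the first window of 6 of the 8 members, against 48.2% of the 15691 measured genes with an entry and 35.9% of all 27025 genes with an entry. CCAAT stood in 3 of 8 (38.8% and 37.9%), TATAAA in 1 of 8 (13.1% and 14.2%), the cyclic AMP response element in 1 of 8 (2.4% and 1.9%) and the E-box in 0 of 8 (8.2% and 7.2%). The Uprt window had the lowest GC content of the 8 first windows, 51.0%, and the fewest CpG dinucleotides, 7, where measured genes had medians of 57.0% and 14. Umps had 53.0% and 15, and the other first windows ranged from 58.7% to 68.3% and from 14 to 27. These matches are letters in a window and were not related to the signals.

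Uprt and Ctps2 are both X-linked, and the other members lie on chromosomes 1, 2, 4, 5, 8 and 16. To see whether the level of Uprt moved with its chromosomal surroundings, the 3 nearest measured genes on each side, by RefSeq order on GRCm38.p6, were examined. On the side of lower coordinates these were Nexmif, a neuronal gene of neurite growth, Rlim, a ubiquitin ligase, and Zcchc13. They differed by -0.19 (SE 0.24), 0.12 (SE 0.23) and 0.29 (SE 0.25), and their groups overlapped.

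On the other side Zdhhc15, a palmitoyltransferase and the nearest measured gene, differed by -0.04 (SE 0.28), and Pbdc1 by 0.27 (SE 0.25), again with overlapping groups. Magee2, a gene of the MAGE family that lies between them, stood at 5.74 and 5.20 in the TCQA arrays and at 4.66 and 4.35 in the water arrays, all below the negative control median. Its difference was 0.96 (SE 0.25; limma, adjusted p = 0.657), and its groups did not overlap. It was 0.70 without TCQA 1 and 0.81 without water 2, and it met the study's criteria without TCQA 2 (1.23) and without water 1 (1.12). Of the 6 neighbours, 0 passed the adjusted threshold (0% of all transcript clusters) and Magee2 alone had an unadjusted p under 0.05 (7.37% of all). Magee2 alone of the 6 had TCQA wholly above water, where 19.9% of all transcript clusters did so.

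The genes whose profile over the 4 arrays was nearest to that of Uprt were Med16, Ksr1, Zfand2a, Fkbp5, Syngr3 and Fn1. Nearness was the Euclidean distance between log2 profiles centred on their mean, among 9758 genes at or above the median signal, and a gene equal on all arrays would lie at 1.294. Med16, a Mediator subunit, lay at 0.106, with levels of 8.86 and 8.96 after TCQA and 7.85 and 7.52 after water. Ksr1, a scaffold of the Ras-ERK cascade, lay at 0.241, with 10.50 and 10.71 against 9.57 and 9.42. Fn1, fibronectin, was the last of the 6, at 0.372.

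Zfand2a, a zinc finger protein induced by proteotoxic stress, lay at 0.299, Fkbp5, a glucocorticoid-induced co-chaperone, at 0.353, and Syngr3, a synaptic vesicle protein, at 0.359. All 6 had both TCQA arrays above both water arrays, which follows from how they were picked. Among the members, the nearest to Uprt was Umps at 0.870, followed by Uckl1 at 0.927 and Ctps2 at 0.946. Cad was the farthest at 1.630. With 4 arrays such distances rest on few values and say nothing of shared control.

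**Figure D3:**
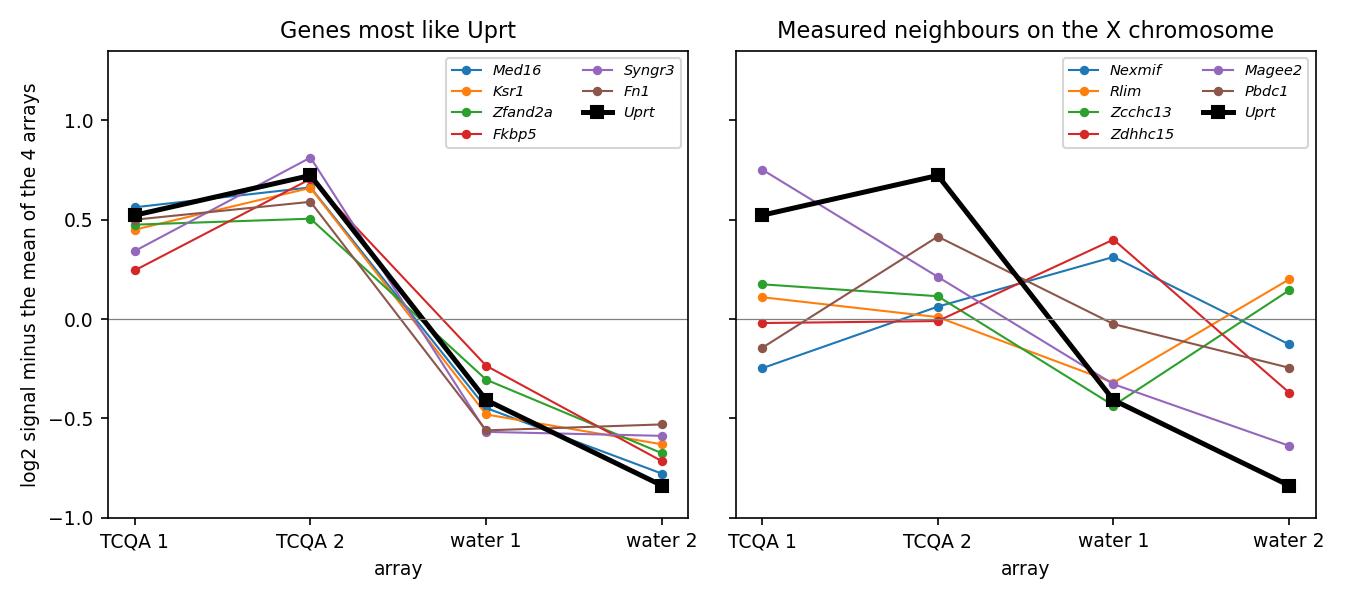
Log2 signal minus the gene's mean over the 4 arrays (vertical axis) on each array (horizontal axis), for Uprt in black beside the 6 genes of nearest profile (left) and its 6 measured neighbours on the X chromosome (right). The 6 picked genes follow the fall from the TCQA to the water arrays. Among the neighbours only Magee2 has both TCQA arrays above both water arrays, as 19.9% of all transcript clusters have.

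Around the members, 75 further genes of pyrimidine and related nucleotide metabolism were measured, in 11 lists put together by function. None of these genes passed limma's adjusted threshold (0% of all transcript clusters did), with a smallest adjusted p of 0.642. The study's criteria were met by 0 of them, where 0.664% of all transcript clusters met them. An unadjusted p under 0.05 was reached by 4 genes, all higher after TCQA (Nt5c3, Nme4, Tyms and Paics). That is 5.33% of the 75, beside 7.37% of all transcript clusters. When only rows at or above the median signal were tested, 5 higher and 2 lower of 47 reached it, beside 898 of 9786 rows. In all, 47 were higher and 28 lower, with a median of 0.06. The TCQA arrays lay wholly above for 18 and wholly below for 11 of the 75, beside 19.9% and 19.2% of all transcript clusters, and 23 of the 75 lay below the negative control median on all arrays.

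The 5'-nucleotidases, which strip the phosphate from nucleoside monophosphates, held the largest difference of these 75 genes. Nt5c3, whose human counterpart prefers UMP and CMP, stood at 10.45 in TCQA 1 and 10.53 in TCQA 2, against 9.49 in water 1 and 9.74 in water 2. The groups were further apart than the arrays within them, and the difference was 0.87 (SE 0.20; limma, adjusted p = 0.642). It was between 0.75 and 1.00 when any 1 array was left out, and without water 2 it met the study's criteria. Of the 8 nucleotidases, 5 were higher and 3 lower, with a median of 0.03, and Nt5c1b and Nt5c1a stood at -0.34 and -0.21 at signals below the negative control median.

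Upp1, uridine phosphorylase, which splits uridine to uracil, had levels of 3.42 and 2.72 with TCQA against 3.61 and 3.85 with water, all far below the negative control median. Its difference was -0.66 (SE 0.28; limma, adjusted p = 0.673), and it was -1.01, past the study's criteria, without TCQA 1. Of 5 breakdown genes 2 were higher and 3 lower (median -0.05, from -0.41 without TCQA 1 to 0.19 without TCQA 2), with Dpyd, the first enzyme of uracil degradation, at -0.23 and Upp2 at 0.14.

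Of 7 nucleoside transporters 3 were higher and 4 lower (median -0.11), and 5 lay below the negative control median on all arrays. Slc28a3, a sodium-coupled carrier, differed by -0.47 (SE 0.20; limma, adjusted p = 0.683). Slc29a1, the main equilibrative carrier, differed by -0.37 (SE 0.34), and Slc29a4 by -0.22. The 3 measured receptors of extracellular UTP and UDP (P2ry2, P2ry4 and P2ry6) differed by -0.38, -0.34 and 0.13, also below the negative control median on all arrays.

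Of 9 mono- and diphosphate kinases, which carry UMP onward, 7 were higher (median 0.11). Dtymk, thymidylate kinase, differed by 0.52 (SE 0.23; limma, adjusted p = 0.683). Nme4, the mitochondrial diphosphate kinase, also differed by 0.52 (SE 0.21; limma, adjusted p = 0.673), below the negative control median, and Nme3 differed by -0.26. In thymidylate and deoxynucleotide synthesis 6 of 9 were higher (median 0.25), led by Tyms, thymidylate synthase, at 0.47 (SE 0.19; limma, adjusted p = 0.673), with Rrm1 at 0.37 and Rrm2b at 0.25. That list's median was 0.03 without TCQA 2. Nme4, Tyms and Paics each lost the unadjusted p under 0.05 in at least 3 of the 4 fits that left out 1 array. Of the 6 other salvage enzymes 3 were higher (median -0.02, or 0.24 with filters on dim rows). Dctd stood at 0.35, Tk2 at 0.24 and Tk1 at -0.29, the last below the negative control median on all arrays.

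PRPP, the sugar phosphate used by Umps, is made by the Prps enzymes. All 4 measured genes of its synthesis were higher after TCQA, where 50.5% of all transcript clusters were. The list's median was 0.26 (0.16 without TCQA 2). An unadjusted p under 0.05 in limma's fit was reached by 0 of the 4, and by 7.37% of all transcript clusters. Prps1, the main synthetase of the brain, had levels of 12.81 and 13.12 with TCQA against 12.60 and 12.66 with water, a difference of 0.33 (SE 0.20; limma, adjusted p = 0.714). Prpsap2 and Prpsap1, the associated regulatory proteins, differed by 0.30 and 0.22, and Prps2 by 0.11.

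Of 6 measured phosphoribosyltransferases other than Uprt and Umps, 2 were higher and 4 lower, with a median of -0.13. That median was 0.01 with filters on dim rows. Qprt, of NAD synthesis, differed by -0.41 (SE 0.19; limma, adjusted p = 0.685), below the negative control median on all arrays. Ppat, the first enzyme of purine synthesis, differed by -0.26, and Hprt, which salvages hypoxanthine and guanine, by 0.26 (SE 0.20). Whether Uprt differed from these genes in its response was not tested.

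Among 10 users of CTP and UTP, 7 were higher (median 0.08). Pcyt1a and Pcyt1b, which both make CDP-choline for phosphatidylcholine, differed by -0.42 (SE 0.20) and 0.32 (SE 0.21), and Ugdh, which makes UDP-glucuronate, by 0.32 (SE 0.19). Of 8 purine synthesis genes 7 were higher, with a median of 0.24, which was 0.07 without TCQA 1 and 0.38 without TCQA 2. Paics differed by 0.52 (SE 0.21; limma, adjusted p = 0.673), Gmps by 0.44 (SE 0.20) and Adssl1 by -0.45 (SE 0.19).

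**Figure D4:**
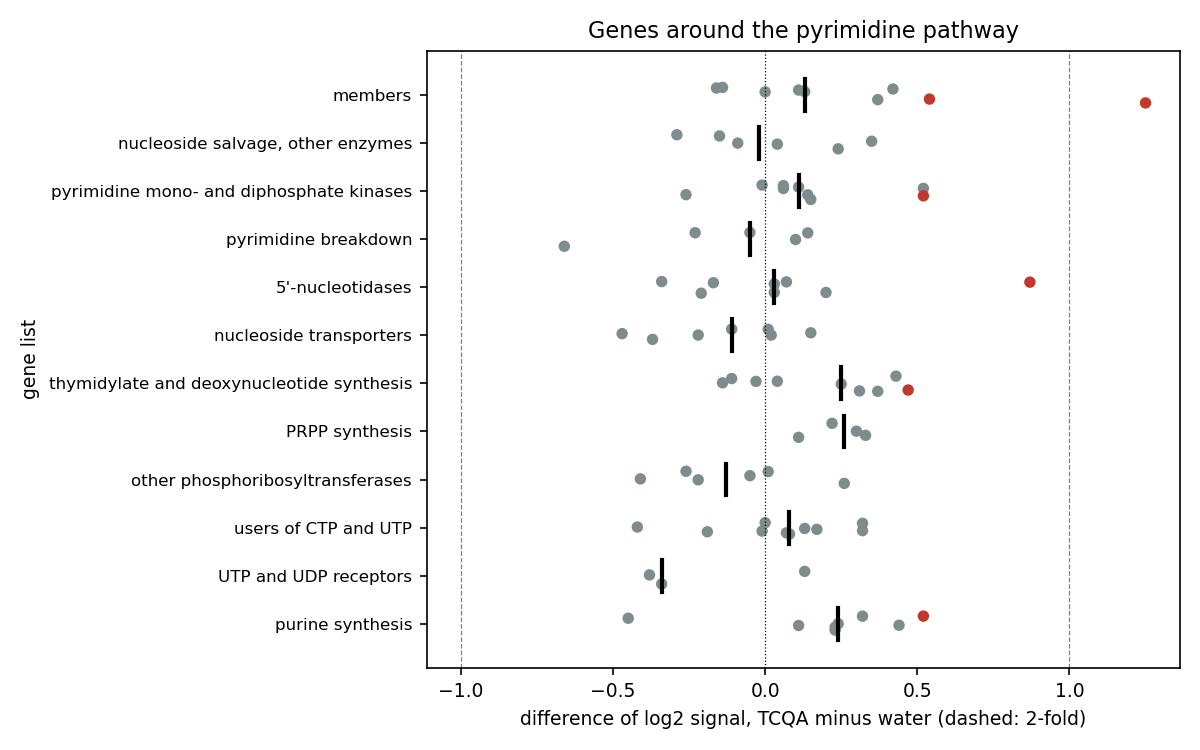
Difference of log2 signal, TCQA minus water (horizontal axis), of every measured gene in the 12 lists (vertical axis, the 9 members on top), with red points for an unadjusted p under 0.05 in limma's fit, black bars at list medians and dashed lines at 2-fold. Uprt alone lies beyond 2-fold, Nt5c3 follows at 0.87, and list medians lie between -0.34 and 0.26.

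The tissue label was checked against markers. Excitatory cortical neuron markers averaged between 11.24 and 12.14 on the arrays, in which Emx1 alone of 9 lay below the negative control median on all arrays. Their mean was 12.14 and 12.04 in the TCQA arrays, 12.07 in water 2 and 11.24 in water 1. Striatal spiny neuron markers averaged between 11.37 and 12.88, and 0 of 8 lay below the negative control median on all arrays. The check therefore does not single out cortex. Of olfactory bulb neurons, Eomes and Cdhr1 lay above the negative control median in TCQA 2 alone, and Slc4a5, of choroid plexus, in water 1 alone.

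Excitatory neuron markers were higher after TCQA, as Uprt was, for 8 of 9 (median 0.54), olfactory bulb markers for 6 of 7 (median 0.82) and inhibitory neuron markers for 6 of 9 (median 0.41). Striatal markers were lower for 8 of 8 (median -0.71). Choroid plexus markers were lower after TCQA for 9 of 9, with list means of 6.74 and 6.45 against 8.04 and 7.36. TCQA lay wholly below water for 7 of the 9 (19.2% of all transcript clusters), and 4 met the study's criteria (0.664% of all). Otx2 and F5 lay below the negative control median on all arrays. Myelin markers were lower for 8 of 8 (11.24 and 11.19 against 11.97 and 11.31) and astrocyte markers for 6 of 7 (11.99 and 12.04 against 12.32 and 12.24). Thalamic markers were lower for 5 of 8, with list means of 8.41 and 8.82 against 9.38 and 8.83. Endothelial and mural markers were higher for 7 of 8, with list means of 9.02 and 8.89 against 8.68 and 8.79. Of 7 markers of microglia and macrophages 6 were lower, with a median of -0.07. The other, Mrc1, stood at 8.68 and 7.46 against 6.54 and 6.57, a difference of 1.51 that met the study's criteria. Fezf2, of excitatory neurons, met them as well, with a difference of 1.17. So did Prkcd, of thalamic neurons, at -1.99. The part of these lists in the difference of Uprt was not tested.

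Olfactory bulb markers averaged 8.37 in TCQA 2 and between 6.23 and 6.79 in the other arrays, and inhibitory neuron markers 10.77 against 9.99 to 10.18. Without TCQA 2 Uprt differed by 1.15 (SE 0.30). Striatal markers averaged 12.88 in water 1 and between 11.37 and 11.90 in the others, and without water 1 Uprt differed by 1.47 (SE 0.25). For choroid plexus, thalamic, myelin, astrocyte and endothelial lists, both TCQA means lay on the same side of both water means. Leaving out 1 array does not address those lists, and the part of any list in the difference of Uprt was not tested. Microglia and macrophage markers averaged between 8.59 and 8.99, with both extremes in the TCQA group.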

How the data were processed

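Gene expression was measured in cortex RNA (100 ng per array) on 4 Clariom S arrays. The authors deposited 1 log2 signal for each transcript cluster and array. Per the submitters' design text these were made with SST-RMA in Transcriptome Analysis Console 4.0.2. RMA and limma are listed in the submitters' processing notes. This processing equalises the arrays, so that no depth per array remains, and SST can widen differences compared with plain RMA. A genome build was not given in the sources used here.

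Of 28846 rows, 19572 had 1 gene symbol in the platform annotation, 0 had several and 9274 had none (6640 of them controls). All 19572 were matched to RefSeq by gene identifier. Where 55 symbols had more than 1 row, the brightest stood for the gene in lists. Of 81 further pathway genes 75 were measured, 2 of them under an older symbol, and 79 of 86 marker genes were.

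Groups came from the sample labels. Values were fitted with limma 3.58.1 in R 4.3.3 (lmFit and eBayes, 2-sided, no block), with Benjamini-Hochberg adjustment over 19572 rows. The SE is limma's moderated one, and the SE had a median of 0.22. The fit was run on data simulated from its own fitted variances, where 95.6% of log2 steps of 1.5 met the study's criteria. Those data hold no array that stands apart, so that the run checks the code and not the design. Precision is limited by the number of arrays.

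The members and lists were chosen with earlier results of these data known. Named were all members, up to 3 genes of smallest p per list with any past the study's criteria, 3 measured neighbours of Uprt on each side and 6 genes of nearest profile. Marker genes were to be named where all arrays but 1 lay below the negative control median. Emx1, Otx2 and F5, below it on all arrays, were named after their values were seen. So were Mrc1, Fezf2 and Prkcd, which met the study's criteria. Settings varied were normalisation, array weights, the prior, dim rows, rows of a symbol, leaving out each array and a replicate block. Plots used matplotlib 3.10.9 (Python 3.11.15).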

Additional observations from a re-analysis of the deposited data

How the results depend on the processing

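Uprt was chosen on these arrays, so that its values under other settings give no independent support. It kept its direction and met the study's criteria in 14 of 14 alternative settings, with log2 differences from 1.03 (without water 2) to 1.47 (without water 1). Umps (0.37 to 0.70) and Ctps2 (0.32 to 0.39) kept their direction in 14 of 14 settings. Uckl1 (0.37 to 0.46) kept it in 12 of 12, since filters on dim rows removed Uckl1 and Cad. For these genes and Uprt, whose groups did not overlap, only quantile normalisation and median centring could have turned the direction. The other settings keep it by construction. Cad ranged from -0.55 to 0.24 and Ctps from -0.27 to 0.48, both set by which TCQA array was left out. Ctps2 had an unadjusted p under 0.05 with a prior that follows the signal and under both filters on dim rows. Uckl1 had one under quantile normalisation. Umps had an unadjusted p under 0.05 in the fit of all arrays but not without TCQA 2 or water 1, nor under quantile normalisation, median centring or the prior over every row. The 4 members whose groups did not overlap became 5 to 6 with 1 array left out, where fewer arrays make overlap less likely, and were 4 under quantile normalisation and median centring.

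Over all genes, the count past the study's criteria was 130 and ranged from 218 (without water 1) to 428 (without water 2) with 1 array left out, where the lone array is assumed to vary like the other group. It was 44 when only rows at or above the median signal, or only those above the negative control median, were tested (9786 and 9834 rows), and those filters gave 898 and 902 rows with an unadjusted p under 0.05, against 1443. With the prior fitted over every row, controls included, 984 had one. Without TCQA 1, 2 rows passed limma's adjusted threshold, against 0 otherwise. With the replicate number as a block (replicate block), 130 met the criteria and Uprt differed by 1.25. The numbers did not pair the arrays, whose deviations correlated at -0.003 across genes. Of the 75 wider genes, 4 higher and 0 lower had an unadjusted p under 0.05 in the fit of all arrays. With the prior over every row these counts were 1 and 0, and under quantile normalisation and median centring 2 and 1. Both filters on dim rows kept 47 of the 75, of which 5 higher and 2 lower had one. List medians moved by more than the spread between arrays in 40 of 166 cases. With 1 array left out they changed sign for 5'-nucleotidases (-0.09 without TCQA 2, -0.03 without water 2) and other salvage enzymes (0.06 without TCQA 1, 0.05 without water 2). They also changed sign for breakdown (0.19 without TCQA 2, 0.07 without water 1), receptors (0.04 without water 1) and users of CTP and UTP (-0.01 without TCQA 2). The negative controls' range limits what can be said of dim members.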
